A study of Rattus norvegicus with 3 samples.

Results

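Transcripts of 10 genes that mark endothelial cells, the lining of blood vessels, were followed in the rat common carotid artery before and after injury with a balloon catheter, a procedure that scrapes the lining off and stretches the wall. The genes were given as a list of names, drawn up with earlier results of these data known: the growth factor receptors Kdr, Flt1, Tek and Tie1, the junction and adhesion genes Pecam1, Cdh5 and Cldn5, the surface mucin Emcn, and the stored multimeric glycoproteins Vwf and Mmrn1. Probes were assigned to them through sequence accessions, and 9 of the 10 genes had a probe, with 15 probes among 15281 genes with a symbol on either array design. Vwf was not analysed here. All RNA was total RNA from whole arteries of male Wistar rats, flushed with cold buffer and frozen. The 3 groups, each with 1 one-colour array, were an uninjured artery, an artery 7 days after balloon injury and an artery 21 days after it. No age and no pooling of animals was given in the sources used here. The design text speaks of independent experiments with different rats at each time, and further arrays were not analysed here.

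Endothelial cells read vascular endothelial growth factor (VEGF) through the tyrosine kinase receptors encoded by Kdr, the main signalling receptor, and Flt1, which binds the ligand tightly and also acts as a decoy. A second system consists of the angiopoietins with their receptor Tek and its partner Tie1, and is known for keeping vessels quiescent and stable. Neighbouring cells are held together by VE-cadherin (Cdh5) at adherens junctions, claudin-5 (Cldn5) at tight junctions and PECAM-1 (Pecam1) at lateral contacts. Balloon injury removes this lining in the rat carotid, and the vessel wall also carries endothelium in the small vessels of the adventitia. In RNA from a whole artery, fewer cells of a type and less RNA per cell cannot be told apart, and the lumen and the adventitia are not separated.

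The stretch upstream of the start site is shown for Kdr, Tie1, Cldn5 and Emcn, whose signals were higher at both days. These are the 250 bases before the RefSeq start of each gene on the GRCr8 assembly, read in the direction of the gene. Capitals mark AGGAAG or CGGAAG, a core of ETS factor sites, and GGGCGG, a core of SP and KLF factor sites, on either strand. The stretches lie at chr14:32571813-32572062, plus strand for Kdr, chr5:137304982-137305231, minus strand for Tie1, chr11:95718599-95718848, minus strand for Cldn5 and chr2:228564289-228564538, plus strand for Emcn.
Kdr: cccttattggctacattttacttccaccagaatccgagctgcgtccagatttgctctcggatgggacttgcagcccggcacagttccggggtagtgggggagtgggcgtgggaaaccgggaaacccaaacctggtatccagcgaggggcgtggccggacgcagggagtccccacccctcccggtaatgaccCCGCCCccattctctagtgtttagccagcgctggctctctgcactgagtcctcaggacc
Tie1: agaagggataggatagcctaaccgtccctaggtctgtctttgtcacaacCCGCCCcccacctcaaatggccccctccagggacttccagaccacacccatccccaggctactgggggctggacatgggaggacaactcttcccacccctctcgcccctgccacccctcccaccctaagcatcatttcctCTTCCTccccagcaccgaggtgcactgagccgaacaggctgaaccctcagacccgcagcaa
Cldn5: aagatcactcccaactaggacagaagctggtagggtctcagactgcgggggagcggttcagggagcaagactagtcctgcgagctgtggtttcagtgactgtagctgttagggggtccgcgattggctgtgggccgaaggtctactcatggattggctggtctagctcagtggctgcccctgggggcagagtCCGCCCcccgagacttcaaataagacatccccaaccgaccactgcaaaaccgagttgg
Emcn: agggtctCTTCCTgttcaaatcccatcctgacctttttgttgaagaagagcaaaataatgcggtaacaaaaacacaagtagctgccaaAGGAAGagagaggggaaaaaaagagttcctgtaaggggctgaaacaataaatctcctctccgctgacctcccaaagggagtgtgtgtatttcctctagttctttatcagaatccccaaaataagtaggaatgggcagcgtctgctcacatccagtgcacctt
Of the 6 members with an entry in the promoter table, 4 held an ETS core in this window (Flt1, Tie1, Emcn and Mmrn1), against 39.4% of all 33469 promoters. A GGGCGG core was found in Kdr, Flt1, Tie1 and Cldn5, against 30.5% of all promoters. The SP and KLF core lay 59 bases before the start in Kdr and 58 bases before it in Cldn5. In Tie1 the ETS core began 61 bases before the start. The letters GTAAACA, a forkhead core, were in none of the 6 windows and in 3.21% of all promoters. TATAAA, read on the gene strand only, was in Flt1 alone of the 6 and in 8.06% of all promoters. These matches are letters in a window and say nothing of a bound factor.

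The arrays differed in more than time. The uninjured and day 21 arrays shared a design and a scan, whereas the day 7 array had another design, scan and software version, and for every day 7 comparison the batch and the group cannot be told apart. Only 5 members (Kdr, Tek, Tie1, Cldn5 and Emcn) had a probe on all 3 arrays. Between 59.8% and 76.5% of probes were well above background, and no spot was saturated. With 1 array per group there was no test and no p-value. Values are log2 signals after subtracting the array's 75th percentile, ratios are differences of those, and ± gives a technical SD from spots printed more than once, with no spread between animals in it. That SD is divided by the square root of the number of spots averaged for the probe. It is therefore narrower for a probe with more spots, and each member probe had 1 spot per array. Probes of the same gene varied more widely, by an SD of 0.57 for day 21 against uninjured and 0.98 for day 7 against uninjured. A probe not well above background on 1 array gave only a nominal lower bound: its bright reading was divided by its own dim reading or, if higher, by the dimmest compared probe that counted as well above background on that array. The bound is nominal because the limit differs by probe. On the uninjured array a probe at 10.8 units was not well above background, while another at 9.31 was. No technical SD is taken off the bound. On the uninjured array 7 of the 9 genes with a probe were well above background on at least 1 probe, and Tek and Pecam1 were not. At day 7 this held for all 8 genes on that design and at day 21 for all 9.

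**Figure D1:**
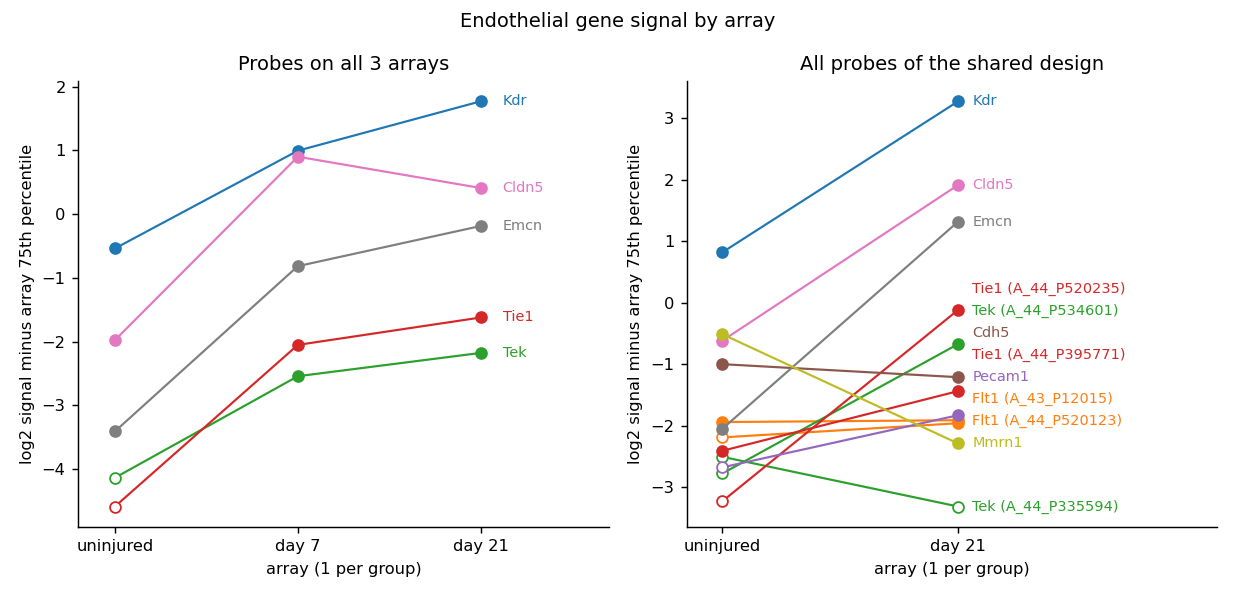
Scaled log2 signal of each member probe (vertical axis, log2 signal minus the array's 75th percentile) on each array (horizontal axis), for the 5 probes on all 3 arrays (left) and the 12 probes on the uninjured and day 21 arrays (right). Filled points were well above background and open points were not, and heights are not comparable between probes. On the left, Tek and Tie1 have open points in the uninjured artery. On the right, both Tek probes, the shared Tie1 probe, Pecam1 and the Flt1 probe A_44_P520123 have open points there. The Tek probe A_44_P335594 is also open at day 21.

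Kdr, the main VEGF receptor, was higher in the injured artery at both days. Its probe read 87.4 intensity units (scanner error 8.94) in the uninjured artery, 459 (46.0) at day 7 and 1309 (131) at day 21. Relative to the 75th percentile of the shared probes, the log2 levels were -0.54, 0.996 and 1.77. The order was thus uninjured, day 7, day 21, with each step wider than the technical spread. Day 7 stood at a log2 ratio of 1.53 ± 0.16 over uninjured (2.90-fold), above 92.2% of the 5242 genes measured (well above background) on both. On all probes of the common design, day 21 stood at 2.46 ± 0.17 (5.49-fold), above 97.6% of 9416 genes. The step from day 7 to day 21 was 0.78 ± 0.14. With own-design scaling, where the 75th percentile is taken over all probes of each array, the day 7 value was 0.31, and the deposited value table gave 0.77, both under 2-fold. The median of all genes was -1.23 and -0.73 in those settings, against -0.01 as reported.

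Flt1, the other VEGF receptor, showed no difference beyond the technical spread at day 21. Its brighter probe (A_43_P12015) read 12.9 units in the uninjured artery (error 2.47) and 35.9 at day 21 (error 4.50). After scaling these were log2 levels of -1.94 and -1.91, a ratio of 0.03 ± 0.35. The arrays did not differ beyond the technical spread there, and 63.1% of genes lay below Flt1. A further probe (A_44_P520123), at 10.8 units in the uninjured artery (not well above background) and 34.7 at day 21, gave a bound of 0.23. With normexp background correction the Flt1 ratio was -0.48, with array median scaling 0.51 and in the authors' deposited table, at another probe, 0.66, so no direction is given. On the day 7 design Flt1 had a probe of its own, which read 186 units (error 18.9), well above background and brighter than 73.6% of probes on that array.

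Tek and Tie1, the angiopoietin receptor and its partner, were dim in the uninjured artery and above background after injury. The shared probe of Tek (A_44_P534601) read 7.21 units in the uninjured artery (error 2.44), 39.5 at day 7 (error 4.91) and 84.8 at day 21 (error 9.27). Because the uninjured reading was not well above background, Tek has nominal bounds only. These were 2.60-fold higher at day 7 (log2 1.38, technical SD 0.68) and 3.73-fold higher at day 21 (log2 1.90, technical SD 0.50). The injured arteries could be compared directly, at 0.37 ± 0.49 for day 21 over day 7, which is within the technical spread. The log2 bound for day 7 was under 2-fold with array median scaling (0.999), quantile normalization (0.91), own-design scaling (0.16) and normexp (0.14), and that for day 21 with normexp (0.07) and with the mean of both probes (0.65). A second Tek probe (A_44_P335594) read 8.70 units in the uninjured artery and 13.6 at day 21, not well above background on either array, so it gives no ratio.

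The shared Tie1 probe (A_44_P520235) read 5.27 units in the uninjured artery (error 2.04), 55.5 at day 7 (error 6.23) and 125 at day 21 (error 12.7). At day 7 its nominal bound was 3.65-fold higher than in the uninjured artery (log2 1.87, technical SD 0.60). The bound for day 21 was 5.49-fold higher (log2 2.46, technical SD 0.54). Day 21 over day 7 was 0.43 ± 0.31. A second probe (A_44_P395771), well above background on both arrays of the common design at 9.31 and 49.8 units, gave a measured ratio of 0.97 ± 0.43 at day 21, which is 1.96-fold. Both Tie1 probes were thus higher at day 21, with the measured ratio of the second below the nominal bound of the shared one. Own-design scaling (0.65) and normexp (0.23) brought the day 7 bound under 2-fold, and normexp (0.71) the day 21 bound.

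Among the junction genes, claudin-5 differed from the uninjured artery by far more than the technical spread and VE-cadherin by less than it. Cldn5, a tight-junction strand protein, read 32.2 units in the uninjured artery (error 3.74), 430.3 at day 7 (error 43.2) and 509.8 at day 21 (error 51.1). The scaled levels on shared probes were -1.98, 0.90 and 0.41 on the log2 scale. Both injured arteries were far above the uninjured one, at 2.88 ± 0.18 for day 7 (7.35-fold, above 98.4% of genes) and 2.53 ± 0.20 for day 21 (5.79-fold, above 97.9%). Of the 5 genes on all arrays, Cldn5 alone had its highest scaled level at day 7, with day 21 over day 7 at -0.49 ± 0.15. That sign depended on the scaling: the ratio was 0.88 with own-design scaling and 0.32 in the authors' deposited table. The median of all genes was 1.18 and 0.73 in those settings, against -0.19 as reported, and Cldn5 lay below the median each time. With normexp Tek was also lower at day 21 than at day 7 (-0.49). The Cldn5 ratio to uninjured was at least 2-fold in all 11 alternatives for day 7 and all 13 for day 21, the lowest being 1.52 and 1.63.

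Cdh5, the adhesion protein of endothelial adherens junctions, read 24.7 units in the uninjured artery (error 2.98) and 58.3 at day 21 (error 6.18). After scaling, the log2 ratio was -0.21 ± 0.23, inside the technical spread, and 49.3% of all measured genes lay below it. The median of all genes in this comparison was -0.20, and with array median scaling, which moved that median to 0.28, Cdh5 was at 0.27. That scaling shifts every gene by the same amount, so it cannot move the place of Cdh5 among genes. Its probe on the day 7 design read 128 units (error 13.2), well above background, and has no counterpart on the other arrays.

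Pecam1, an adhesion molecule of endothelium that platelets and leukocytes also carry, read 7.72 units in the uninjured artery (error 1.88), which was not well above background. At day 21 it read 38.0 units (error 4.35), a nominal lower bound of 1.67-fold (log2 0.74, technical SD 0.49), under the 2-fold threshold. Array median scaling (1.22), quantile normalization (1.25) and cyclic loess (1.46) placed the bound above 2-fold, as did the authors' deposited table at another probe (1.69). With normexp the log2 bound was 0, so that no difference was left. At day 7 a different Pecam1 probe read 354 units (error 35.6), brighter than 80.5% of probes on that array.

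Emcn, which encodes endomucin, a sialomucin known from capillary and venous endothelium, had the largest measured ratio of the members at day 21. It read 11.9 units in the uninjured artery (error 2.32), 131 at day 7 (error 13.5) and 337 at day 21 (error 33.8). The scaled log2 levels on shared probes were -3.41, -0.82 and -0.19, again in the order uninjured, day 7, day 21. The ratio was 2.59 ± 0.34 at day 7 (6.03-fold, above 97.9% of genes) and 3.37 ± 0.34 at day 21 (10.3-fold, above 98.7%). Day 21 over day 7 was 0.63 ± 0.16. With normexp the values against uninjured were 0.70 at day 7 and 1.68 at day 21, the former under 2-fold.

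Mmrn1, which encodes multimerin-1, a factor V-binding protein of platelets and endothelium that is also used as a lymphatic marker, was the only member at least 2-fold lower. It read 34.6 units in the uninjured artery (error 3.99) and 27.6 at day 21 (error 4.10), while the 75th percentile of the array was 49.6 units in the uninjured and 135 at day 21. The scaled log2 level was -0.51 in the uninjured artery and -2.29 at day 21, a ratio of -1.78 ± 0.27 (3.43-fold lower), with 2.87% of measured genes below it. All 10 alternatives kept it at least 2-fold lower, from -1.81 to -1.04. Mmrn1 had no probe matched on the day 7 design.

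**Figure D2:**
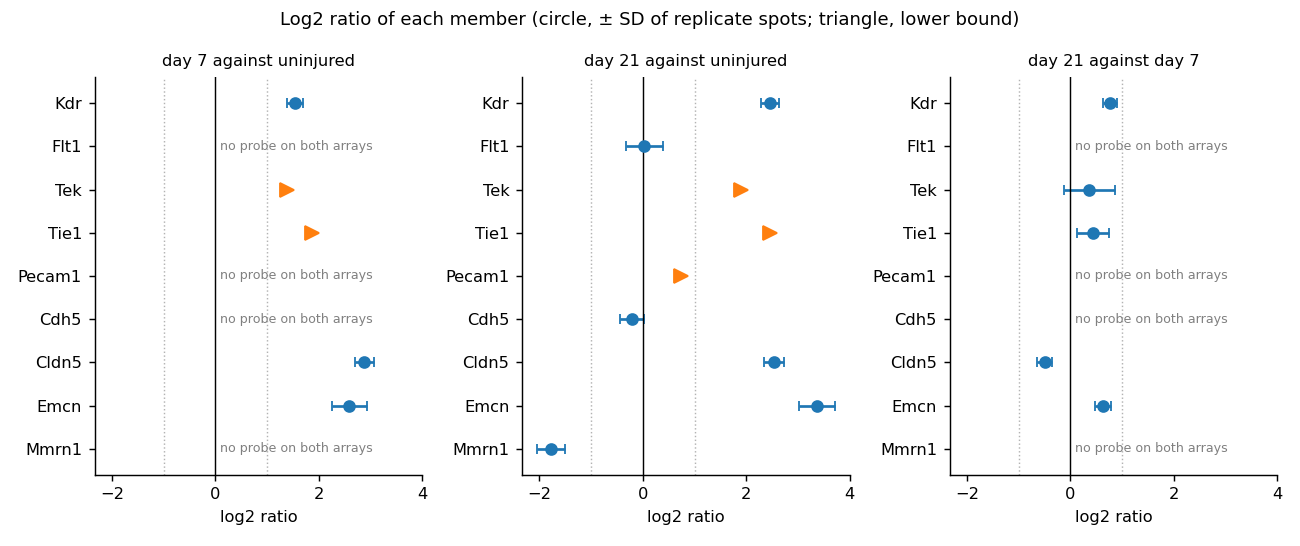
Log2 ratio (horizontal axis) of each member (vertical axis) in the 3 comparisons, read at its brighter probe, with circles and bars for measured ratios ± the SD of replicate spots and triangles for lower bounds. The dotted lines mark 2-fold in each direction, and all 5 members comparable at day 7 lie to the right of 2-fold, while Flt1 and Cdh5 lie near 0 and Mmrn1 is lower at day 21.

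At day 7, 5 of 10 members could be compared with the uninjured artery, and 3 of those were well above background on both arrays. All 3 (Kdr, Cldn5 and Emcn) were at least 2-fold higher, where 16.1% of the 5242 measured genes were. With bounds included, 5 of 5 were at least 2-fold higher, where 20.1% of 6706 genes were. Tek and Tie1 entered that count because they were bright at day 7 alone, so the count describes these arrays and is no support of its own. The median of the 5 was 1.87 with bounds, and that of all genes 0.11. On the same arrays 16.3% of the measured genes were at least 2-fold lower (16.8% with bounds), and none of the members was. Scaling each array on its own design left 2 of 5 members at least 2-fold higher, Cldn5 and Emcn, where 3.43% of measured genes were. It moved the median of all genes to -1.23. Normexp also left 2 of 5, Cldn5 and Kdr, where 6.45% of measured genes were at least 2-fold higher.

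At day 21, 9 members could be compared, 6 of them well above background on both arrays. Of those 6, Kdr, Cldn5 and Emcn were at least 2-fold higher, where 9.11% of 9416 genes were, and Mmrn1 was lower by at least 2-fold, where 13.7% were (14.6% with bounds). Flt1 and Cdh5 lay between. With bounds, 5 of 9 were at least 2-fold higher, where 9.90% of 10996 genes were. Tek and Tie1 entered that count only because they were bright at day 21, so it too is a description, and read at the other Tie1 probe (0.97) the count was 4. The median of the 9 was 1.90 with bounds and 1.24 over the 6 measured, against -0.20 for all measured genes. Under normexp 3 of 9 were at least 2-fold higher, where 8.39% of measured genes were, and the median of the 9 was 0.07.

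**Figure D3:**
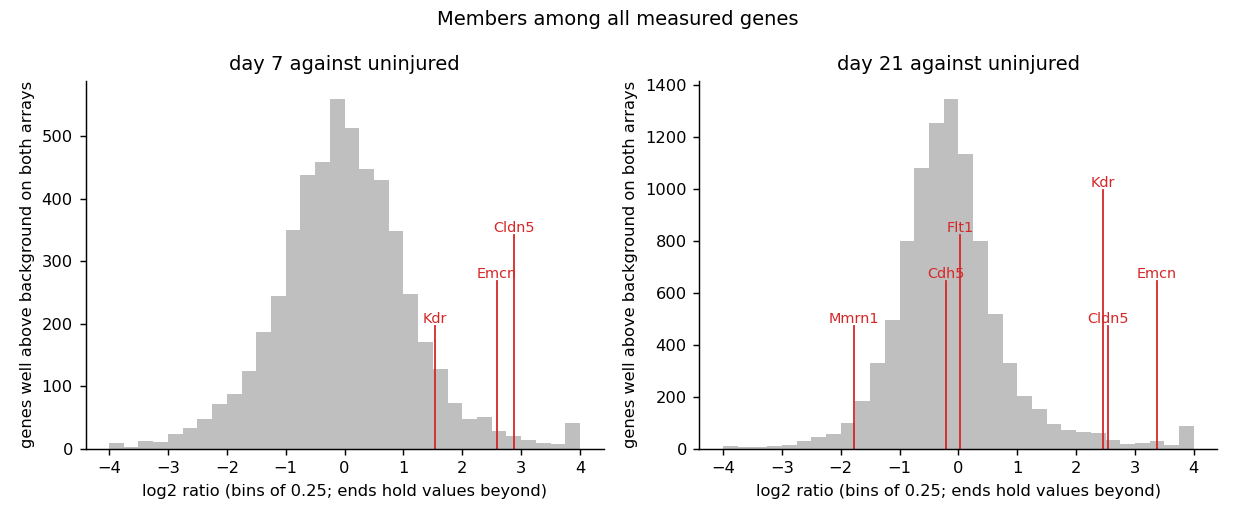
Number of measured genes (vertical axis) by log2 ratio (horizontal axis, bins of 0.25, the end bins holding values beyond) for day 7 and day 21 against uninjured, with red lines at the members measured in each. The lines for Kdr, Cldn5 and Emcn stand in the upper tail on both days, Flt1 and Cdh5 stand near the centre, and Mmrn1 stands in the lower tail at day 21.

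Between day 7 and day 21 none of the 5 members differed by 2-fold, where 10.7% of 5633 measured genes stood at least 2-fold higher at day 21, and 20.0% were lower by as much (10.5% and 26.2% with bounds). The values ran from -0.49 for Cldn5 to 0.78 for Kdr, with a median of 0.43 against -0.19 for all genes. Own-design scaling made 4 of the 5 at least 2-fold higher at day 21, with a median of 1.80. It also made 57.6% of all measured genes at least 2-fold higher and moved the median of all genes to 1.18. The ratios of both days to uninjured share the uninjured array and are given side by side only.

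**Figure D4:**
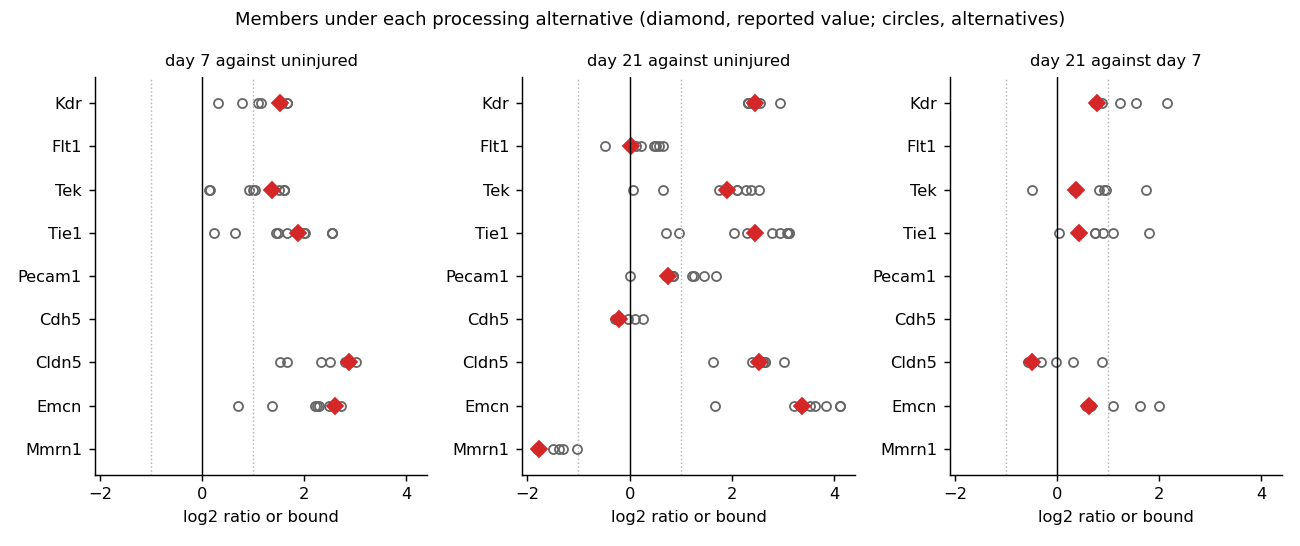
Log2 ratio or bound (horizontal axis) of each member (vertical axis) as reported (red diamonds) and under each processing alternative (open circles), in the 3 comparisons. Dotted lines mark 2-fold, and the circles of Cldn5 at both days, and of Kdr and Emcn at day 21, stay to the right of 2-fold, while those of Kdr at day 7 reach 0.31.

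Other genes known from endothelium were mostly higher as well. From a list of 34, chosen with earlier results of these data known, 24 had a shared probe. Of the 19 measured on both arrays at day 7, 11 were at least 2-fold higher, where 16.1% of all genes were, and none was at least 2-fold lower, where 16.3% were. Cd34, outside those 19 because it was not well above background at day 7, had a nominal bound of 2.07-fold lower. That bound was within its technical SD (log2 -1.05, SD 1.13), from 16.7 units in the uninjured artery and 14.6 at day 7. The 19 genes had a median of 1.18 against -0.01 for all genes. The 6 with the widest ratios were Esm1, a secreted proteoglycan of tip cells (3.17 ± 0.18), Procr, the protein C receptor (2.57 ± 0.28), the transcription factor gene Sox18 (2.48 ± 0.16), Nos3, the endothelial nitric oxide synthase (2.03 ± 0.05), Rasip1, a Ras-interacting protein of vessel lumens (1.98 ± 0.16), and Esam, a junctional adhesion molecule (1.85 ± 0.15). At day 21, 20 of 24 measured genes were at least 2-fold higher, where 9.11% of all genes were, with a median of 1.58 against -0.20. The widest were Cd93, a lectin-like receptor that myeloid cells also carry (3.72 ± 0.14), Sox18 (2.56 ± 0.18), Sox17 (2.30 ± 0.29), Podxl, encoding podocalyxin (2.28 ± 0.16), and Ramp2, a subunit of the adrenomedullin receptor (2.11 ± 0.18). The other Sox17 probe, shared by all arrays, read 2.39 units in the uninjured artery, 12.2 at day 7 and 3.07 at day 21. It was not well above background on any array, so it gives no ratio. Cd34, a progenitor and capillary mucin, was the single gene at least 2-fold lower, at -1.99 ± 0.45, with 16.7 units in the uninjured artery and 11.5 at day 21 before scaling.

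Among the ligands and co-receptors of the VEGF and angiopoietin systems, most values at day 21 were near or below the uninjured ones. Of 8 genes measured on both arrays at day 21, none was at least 2-fold higher (9.11% of all genes were) and 2 were at least 2-fold lower (13.7% of all genes were): Flt4, the receptor for VEGF-C and VEGF-D (-1.06 ± 0.44), and the co-receptor Nrp2 (-1.73 ± 0.45). Angpt2, the context-dependent Tek ligand, was just under 2-fold higher (0.99 ± 0.14), Vegfc was at 0.58 ± 0.14, Vegfa at -0.17 ± 0.19, Vegfb at -0.67 ± 0.19 and Pgf, encoding placental growth factor, at -0.83 ± 0.18. In the uninjured artery the Tek agonist gene Angpt1, Nrp1 and Vegfd were not well above background. At day 7 only Vegfc (0.17 ± 0.13) and Angpt2 (-0.48 ± 0.25, on another probe) were measured on both arrays. Vegfd had a nominal bound of 2.66-fold higher (log2 1.41, technical SD 0.65). Nrp2, at 15.2 units in the uninjured artery and 2.85 at day 7, had a nominal bound of 2.67-fold lower. That bound was within its technical SD (log2 -1.41, SD 1.44), so no direction is given. Ptprb, the phosphatase that opposes Tek, was not analysed here.

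Junction partners that many cell types share had counts near those of all genes at day 7 (16.1% higher and 16.3% lower). At that day, 2 of 10 measured genes were at least 2-fold higher, the junctional adhesion molecule gene F11r (2.45 ± 0.38) and Nectin2 (1.12 ± 0.25), and 2 were at least 2-fold lower, Jam2 (-1.47 ± 0.35) and Afdn, encoding the actin-linking protein afadin (-2.21 ± 0.11). At day 21, F11r (2.26 ± 0.38) and the tight-junction scaffold gene Tjp1 (1.88 ± 0.29) were at least 2-fold higher among 13 measured, where 9.11% of all genes were. The median was -0.45 at day 7 and -0.01 at day 21.

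The genes whose pair of ratios to uninjured (day 7 and day 21, shared probes) lay nearest to the median pair of Kdr, Cldn5 and Emcn, by Euclidean distance over these 2 ratios, were Ccn5, Sox18, Cmtm7, Arhgef19 and Procr, at distances from 0.042 to 0.16. Among the genes nearest to Cldn5 were Mfng, Mefv, Cmtm7 and Ccn5, at 0.071 to 0.31. Sox18 and Procr are in the endothelial list. The pattern rests on 3 arrays, and 77 genes lay within a distance of 1 of the median pair.

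Markers of other cells that carry some of these transcripts also differed. Of all measured genes, 16.1% were at least 2-fold higher and 16.3% lower at day 7. At day 21 the shares were 9.11% and 13.7%. Macrophage genes were at least 2-fold higher in 6 of 7 measured at day 7 and 10 of 10 at day 21, and their summed level, in multiples of the array's 75th percentile, was 7.47 and 114 on the uninjured and day 7 arrays (8 genes) and 40.0 and 1709 on the uninjured and day 21 arrays (12 genes). Platelet and megakaryocyte genes, relevant to Pecam1, Vwf and Mmrn1, were at least 2-fold higher in 4 of 4 at day 7, with Gp9 at 2.51 ± 0.19 and Treml1 at 1.42 ± 0.16 and a summed level of 18.5 and 49.3. At day 21 none of 6 was at least 2-fold higher, and Gp1bb was at -1.42 ± 0.14, while the summed level was 68.1 and 97.9. These platelet sums rest mostly on Pf4, the brightest of the list, at 2261 units in the uninjured artery, 10827 at day 7 and 11896 at day 21. Its day 21 ratio was 0.95 ± 0.13. Among lymphatic genes, the chemokine gene Ccl21 was lower beside Mmrn1, at -3.17 ± 0.29 at day 21, whereas the hyaluronan receptor gene Lyve1 was at 1.27 ± 0.17 and Prox1, the defining factor, was not well above background on any array. Smooth muscle genes, which check the tissue label, were bright in the uninjured artery, with Tagln at 19225 units. At day 7, 3 of 4 were at least 2-fold lower, and at day 21, 7 of 7 were, with a summed level of 827 and 131. Pericyte genes were mixed, with 2 of 6 at least 2-fold higher and 4 lower at day 7, where Rgs5 was at 1.93 ± 0.17 and Cspg4 at -2.62 ± 0.08. At day 21, 1 of 8 was at least 2-fold higher and 3 were lower. Red cell genes had a summed level of 0.262 and 1.08 at day 7 and of 0.671 and 2.02 at day 21. The part of any of these cell types in the members' ratios was not tested.

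**Figure D5:**
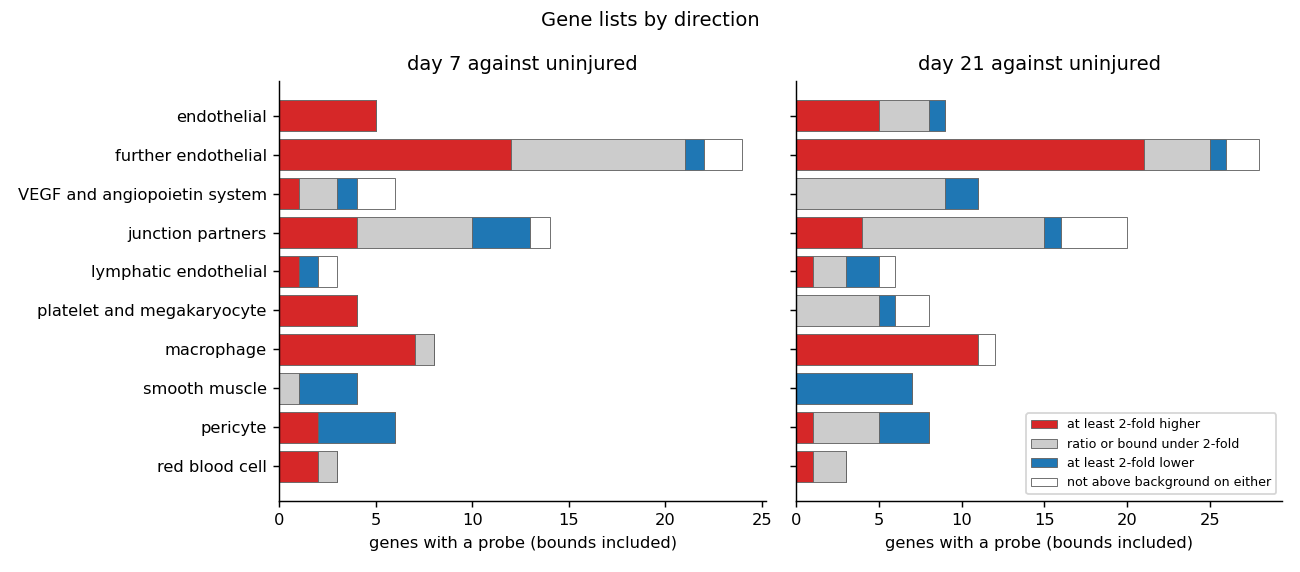
Number of genes with a probe (horizontal axis) in each gene list (vertical axis) that were at least 2-fold higher, at least 2-fold lower, between, or not above background on either array, for day 7 and day 21 against uninjured, with bounds counted at their bound. The 5 endothelial members comparable at day 7 are all in the higher class, the further endothelial list has 12 of 24 genes there at day 7 and 21 of 28 at day 21, and all 7 smooth muscle genes are in the lower class at day 21.

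The authors' deposited table holds log2 values for 7 members. For the 4 whose row is a probe on all arrays, its differences from uninjured were 0.77 at day 7 and 2.32 at day 21 for Kdr, 2.01 and 3.10 for Tie1, 2.33 and 2.65 for Cldn5, and 2.49 and 4.11 for Emcn. The rows of Flt1, Pecam1 and Cdh5 in the authors' deposited table are probes of the day 7 design alone, yet they carry uninjured and day 21 values. Over 2889 such rows whose gene was measured by another probe, the table's day 21 minus uninjured difference correlated with that other probe's scanner ratio at r = 0.95, a correlation across genes, which are not independent, close to the 0.97 over 5155 rows with the same probe. The table's day 7 minus uninjured differences of 5.05 for Pecam1, 3.08 for Flt1 and 0.86 for Cdh5 may therefore set different probes against each other, and they are not used as ratios here. In the same rows day 21 minus uninjured was 1.69, 0.66 and -0.21.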

How the data were processed

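Cy3-labelled total RNA was measured on one-colour Agilent rat arrays, as the labels' protocols say. The deposited intensity values came from Agilent Feature Extraction, version 10.7.3.1 for uninjured and day 21 and 11.0.1.1 for day 7, per the file headers. The deposited processed signal is that software's background-corrected spot brightness, and no scaling between arrays is recorded. The value table deposited by the authors is on a log2 scale, with a normalization that the sources used here do not give.

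Control and flagged spots were left out (0.242% to 1.46% of spots), spots of a probe were averaged, and the 75th percentile was subtracted. Day 7 comparisons used 10583 unflagged probes on both designs, and day 21 against uninjured used 40989. Gene names and promoters came from RefSeq GRCr8 through accessions with the version dropped. A gene was read at its brighter probe. The technical SD was taken from probes with up to 10 replicate spots, in 10 bins of signal, and divided by the square root of a probe's spots. The precision is limited by the number of arrays. The functions were tested on simulated data. Members and gene lists were chosen with earlier results of these data known. All members are named, with the 6 widest ratios or fewer of other lists and the 5 nearest genes, and some markers of other cells. The planned normexp input, the mean signal, was replaced by the median signal in the files (limma 3.58.1, offset 50). Alternatives are in the closing section. Some genes that the naming rule picks are not reported here.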

Additional observations from a re-analysis of the deposited data

Results flagged for a closer look

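With 1 array per group, a gene on 1 side of uninjured at day 7 and on the other side at day 21, each beyond its technical spread, was picked out from the gene lists. The difference between the days was not tested, and the days also differ in array design. Of the 10 endothelial genes, only Kdr, Cldn5 and Emcn were measured on the shared probes at both days, and none of these 3 was picked out. The platelet genes Gp9 (2.51 at day 7 and -0.52 at day 21, a difference of -3.03), Treml1 (1.42 and -1.10, a difference of -2.52) and Ppbp (1.38 and -0.49, a difference of -1.88) were above uninjured at day 7 and below it at day 21 on the shared probes. So were Jup, encoding plakoglobin (0.30 and -0.995, a difference of -1.29), and the smooth muscle gene Lmod1 (0.30 and -1.81, a difference of -2.11). The opposite order was seen for Angpt2 (-0.48 and 0.97, a difference of 1.45), Jam2 (-1.47 and 0.25, a difference of 1.72) and the potassium channel subunit gene Abcc9 (-2.24 and 0.23, a difference of 2.47). Some values lay close to their technical SD: Lmod1 at day 7 (SD 0.29), and Ppbp (0.37), Jam2 (0.18) and Abcc9 (0.15) at day 21. On all probes of the common design, day 21 against uninjured was -0.37 ± 0.23 for Gp9. For Ppbp it was -0.35 ± 0.37, inside the technical spread. At day 7 array median scaling moved the median of all genes from -0.01 to -0.39, and own-design scaling to -1.23. The day 7 sign of Jup and Lmod1 therefore depends on the scaling. For day 21 against uninjured, array median scaling moved the median of all genes from -0.20 to 0.28. The day 21 sign of Gp9 and Ppbp therefore depends on the scaling too.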

How the results depend on the processing

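No paired analysis was possible because each group has 1 array, and no replicate could be left out for the same reason. Alternatives gave 76 values for counts and medians, of which 46 stayed close to the reported value and 30 moved, and none of the members' ratios of 2-fold or more changed sign. The median of the members for day 7 against uninjured (reported 1.87) was 0.70 with normexp, 1.49 with array median scaling, 2.54 with no filter, with the positive and significant flag as the filter and with the mean of all probes, and 0.65 with own-design scaling. The count at least 2-fold higher (reported 5) was 2 with normexp and with own-design scaling, and 3 in the deposited table and at a 3-fold threshold. The share of all measured genes was 6.45% with normexp, 3.43% with own-design scaling, 10.2% in the deposited table and 7.25% at the 3-fold threshold. For day 21 against uninjured the median (reported 1.90) was 0.070 with normexp, 2.38 with median scaling, 2.28 with quantile normalization, 2.54 with cyclic loess, 0.85 with the mean of all probes, 2.88 in the deposited table (4 members), 2.31 on probes of both designs (5 members), 0.97 with the other probe of members with 2 probes and 2.32 in the table matched by gene (7 members), the last 2 chosen after seeing the data, and the count (reported 5) was 3 with normexp. For day 21 against day 7 the median (reported 0.43) was 0.046 with normexp, 0.89 with median scaling, 0.75 with quantile normalization, 0.73 with cyclic loess, 1.32 in the deposited table and 1.80 with own-design scaling, and the count (reported 0) was 2 with median scaling and at a 1.5-fold threshold, 3 in the deposited table and 4 with own-design scaling. The share of all measured genes at least 2-fold higher moved as well. For day 21 against uninjured it was 8.39% with normexp (reported 9.11%). For day 21 against day 7 (reported 10.7%) it was 21.6% with median scaling, 39.6% in the deposited table and 57.6% with own-design scaling. At the 1.5-fold threshold 20.4% were higher by that much. Why the values moved was not tested. Signal over background limits the day 21 ratios of Tek, Tie1 and Pecam1 to bounds, since the uninjured reading of each probe used was not well above background.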
